A study of Mus musculus with 27 samples.

Results

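Tumour lung macrophages were compared with tumour lung monocytes, both of them myeloid populations sorted from tumour-bearing mouse lungs. The comparison rests on 5 of the 27 RNA-seq libraries of the series. They are 3 libraries of CD11c+CD11b+ macrophages (replicates 1, 2 and 3) and 2 libraries of CD11b+Ly6C+ monocytes (replicates 4 and 5). All 5 came from C57BL/6 mice that had received HKP1 lung cancer cells by the tail vein, and lungs were taken at day 20 to 25 of tumour growth. Both groups therefore carry tumour, and the comparison is between cell gates, not between tumour and healthy lung. Lungs were perfused and dissociated, and cells were stained and sorted before RNA was extracted. Nothing in the labels says that libraries of a group are from separate animals. The p-values therefore set each group difference against a spread among these samples that may be technical. Values are deposited FPKM, which corrects fragment numbers for gene length and for library size. They are given in replicate order.

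Monocytes leave the blood and enter inflamed or tumour-bearing tissue, where some mature into macrophages or dendritic cells. Classical mouse monocytes carry Ly6C and the chemokine receptor CCR2. Maturation into macrophages is accompanied by growth of the lysosomal system and by receptors for debris, lipoproteins and dying cells. Lung-resident alveolar macrophages are recognised by CD11c (Itgax), PPARγ (Pparg) and lipid-handling genes.

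The sort markers were read first. Itgax, the CD11c integrin chain, had 452, 458 and 464 FPKM in the macrophage libraries, against 154 and 113 FPKM in the monocyte libraries. The 3 macrophage libraries lay together and above both monocyte libraries, and the difference was 1.78 ± 0.17 on the log2(FPKM + 1) scale (SE, limma, Benjamini-Hochberg adjusted p = 0.00195). Itgam, the CD11b chain that both gates require, had 119, 120 and 142 FPKM in the macrophage libraries, against 223 and 148 FPKM in the monocyte libraries, a difference of -0.52 that did not pass (adjusted p = 0.0928). Ptprc, the pan-leukocyte CD45 gene, was higher in both monocyte libraries, at 146, 138 and 132 FPKM in the macrophage libraries, against 255 and 333 FPKM in the monocyte libraries (log2 difference -1.07). Itgax therefore went with the labels. The genes of Ly6C were not analysed here, so the labelled monocytes were checked by Ccr2 and the other monocyte genes described further on.

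Of 10258 genes that reached 1 FPKM in 2 or more of these 5 libraries, 1460 were higher in tumour macrophages (14.2% of those tested) and 1948 were lower (19.0%), so that 33.2% were called in one direction or the other at an adjusted p under 0.05. The groups did not overlap in 62.8% of all genes tested. Differences of at least 1 on the log2 scale were found for 609 of the higher and 852 of the lower genes, and the median over all genes tested was -0.06. Between 9559 and 9747 genes reached 1 FPKM in a macrophage library, and 10020 and 10162 did so in the monocyte libraries. Relative depth, read from the spacing of the lowest values, ran from 0.979 to 1.08 times that of macrophage replicate 1, and it is rough. Macrophage libraries correlated with each other at Pearson r 0.977 to 0.990 across genes, and the monocyte libraries with each other at 0.971. Macrophage libraries lay nearer to monocyte replicate 4 (0.900 to 0.920) than to replicate 5 (0.858 to 0.884). These coefficients are across genes, which are not independent replicates. Replicate 4 lay between the macrophage mean and replicate 5 in 2265 of the 3408 called genes (66.5%). The count of called genes was 1949 without macrophage replicate 1, 2224 without macrophage replicate 2 and 2005 without monocyte replicate 5.

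**Figure D1:**
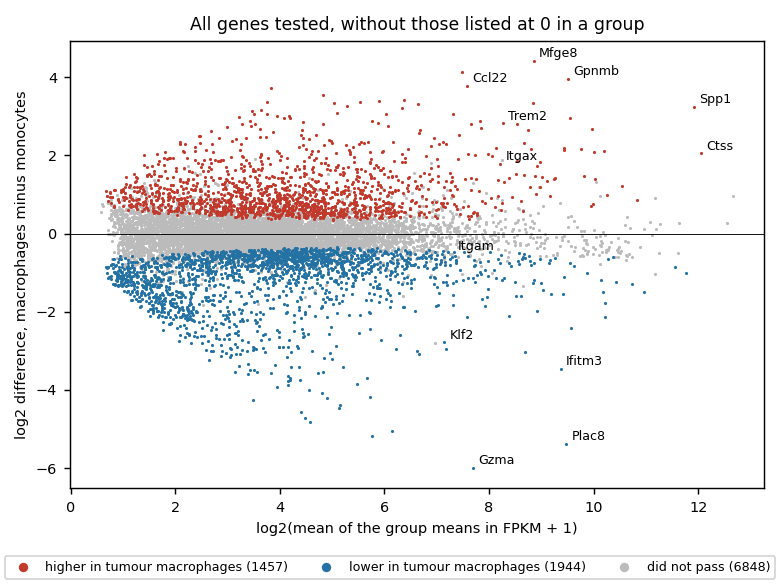
Each point is a gene tested, without the 9 genes listed at 0 in all libraries of a group: log2 of the mean of the group means in FPKM plus 1 (horizontal) against the log2(FPKM + 1) difference, tumour macrophages minus tumour monocytes (vertical). The 1457 red genes were higher and the 1944 blue genes lower in tumour macrophages, and the lower genes reach further from 0, to -6.00 for Gzma.

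The largest excess in tumour macrophages was that of Mfge8, Atp6v0d2 and Gpnmb. Mfge8, the secreted bridge between phosphatidylserine on dying cells and phagocyte integrins (chr7:79133768-79149060, minus strand, GRCm38), had 962, 799 and 884 FPKM in the macrophage libraries, against 40.7 and 40.1 FPKM in the monocyte libraries. Every macrophage library stood far above both monocyte libraries, which were almost equal, and the log2 difference was 4.41 ± 0.14 (SE, limma adjusted p = 7.27e-05). Atp6v0d2, a subunit of the lysosomal proton pump that is prominent in osteoclasts and alveolar macrophages, had 299, 292 and 425 FPKM in the macrophage libraries, against 22 and 15 FPKM in the monocyte libraries (log2 difference 4.12). Gpnmb, a lysosomal glycoprotein of lipid-loaded macrophages (chr6:49036546-49070929, plus strand), had 1430, 1198 and 1474 FPKM in the macrophage libraries, against 125 and 59.7 FPKM in the monocyte libraries (log2 difference 3.96). In both genes the groups were well apart, with monocyte replicate 4 above replicate 5. The phospholipase-family protein Pld3 (3.34), the endolysosomal calcium channel Mcoln3 (3.37), the amino acid carrier Slc36a2 (3.54), the vesicle protein Syngr1 (3.42) and the melanosome and vesicle transport factor Mreg (3.71) were also among the 12 largest log2 differences.

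Ccl22 and Fscn1, both known from mature dendritic cells, were also among the 12. Ccl22, a chemokine that draws CCR4-bearing T cells, had 343, 626 and 111 FPKM in the macrophage libraries, against 17.5 and 22.9 FPKM in the monocyte libraries (log2 difference 3.78 ± 0.66, SE, limma adjusted p = 0.00872). Fscn1, the actin-bundling protein fascin, had 98.2, 194 and 37.5 FPKM in the macrophage libraries, against 7.23 and 7.98 FPKM in the monocyte libraries (3.40). Replicate 2 was the highest and replicate 3 the lowest macrophage library for both genes. Only genes whose groups do not overlap could be among the 12. Tbc1d4 (3.35), a Rab GTPase-activating protein, Cacnb3 (3.34), a calcium channel subunit, and Mreg had the same order of macrophage libraries.

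**Figure D2:**
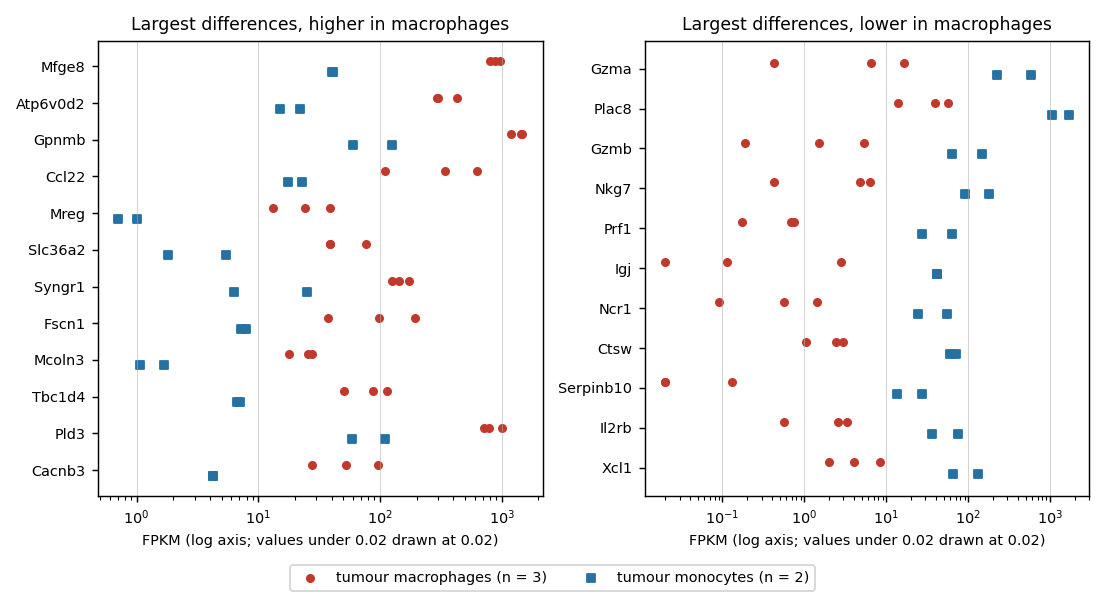
FPKM on a log axis for each library of 12 genes (left) and 11 genes (right) among those with the largest differences in each direction, tumour macrophages as red circles (n = 3) above tumour monocytes as blue squares (n = 2). No gene shown has overlapping groups, which the choice of genes required. Ccl22, Mreg, Fscn1, Tbc1d4 and Cacnb3 spread most among macrophage libraries on the left.

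Lysosomal genes were mostly higher in tumour macrophages. Of 40 lysosome and cathepsin genes tested, 32 were higher in tumour macrophages and 3 were lower, with a median log2 difference of 1.40, beside -0.06 over all genes. Leaving out 1 library at a time left 28 to 31 higher. Ctss, the cathepsin that trims the invariant chain of MHC class II, had 6252, 6122 and 8164 FPKM in the macrophage libraries, against 2044 and 1301 FPKM in the monocyte libraries (log2 difference 2.06). Both monocyte libraries lay far under the macrophage range, replicate 5 lowest. Ctsk, a collagen-degrading cathepsin (3.22), Cd63, a late endosomal tetraspanin (2.95), Lipa, the lysosomal acid lipase (2.81), and Ctsl (2.31) and Ctsb (2.10), both general lysosomal proteases, were higher as well. Among the transcription factors of the lysosomal gene network, Tfec (1.49) and Mitf (1.24) were higher and Tfeb differed by 0.05 (adjusted p = 0.813). Mitf passed in 1 of 5 fits that each left out a library.

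The 3 lower members need separate treatment. Ctsd, encoding cathepsin D, was listed at 0 in all 3 macrophage libraries, against 1223 and 685 FPKM in the monocyte libraries, and Psap, the saposin precursor, was listed at 0 in all 3, against 2249 and 2101 FPKM. Apoe, the lipid carrier apolipoprotein E, was likewise listed at 0 in the macrophage libraries, against 2917 and 1739 FPKM in the monocyte libraries. These 3 genes are abundant in most macrophages, and an exact 0 in an FPKM table can be a failed estimate, so no fold is given. They stay in the counts of lower members, but no lower expression is read from them. In WT macrophages Ctsd, Psap and Apoe averaged 2525, 1835 and 91.6 FPKM, and in unsorted tumour lung 2621, 2089 and 3170 FPKM. Gla, the lysosomal galactosidase, was the only lower member with values in both groups, at 97.5, 83.7 and 77.6 FPKM in the macrophage libraries, against 113 and 155 FPKM in the monocyte libraries (-0.61, limma adjusted p = 0.0421). It passed in 1 of the 5 fits that each left out a library.

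Genes of lipid-associated macrophages, a state defined by the lipid receptor TREM2, were higher in 22 of 28 members tested, and 2 members were called lower. The median log2 difference was 1.5. Trem2 itself had 494, 448 and 664 FPKM in the macrophage libraries, against 105 and 52.2 FPKM in the monocyte libraries (log2 difference 2.82 ± 0.32, SE, limma adjusted p = 0.00272). Spp1, the secreted matrix protein osteopontin, had 4700, 4925 and 10806 FPKM in the macrophage libraries, against 1517 and 293 FPKM in the monocyte libraries. Macrophage replicate 3 was the highest library and monocyte replicate 5 the lowest, and the difference of 3.24 carried a wide error (SE 0.72, adjusted p = 0.0182). The fatty acid carriers Fabp4 (3.31) and Fabp5 (2.68), the lipoprotein lipase Lpl (2.88), the scavenger receptor Cd36 (2.24) and the cholesterol exporters Abca1 (1.96) and Abcg1 (1.8) were higher too. The lower members were Apoe, through its listing at 0, and Cst7, a cystatin that inhibits cathepsins and is also known from cytotoxic lymphocytes, with 2.94, 2.67 and 1.98 FPKM in the macrophage libraries, against 15.5 and 22.9 FPKM in the monocyte libraries (-2.50).

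Receptors and bridges for dying cells were partly higher: 7 of 19 members tested were higher and 2 lower, with a median log2 difference of 0.70. Besides Mfge8 and Cd36, the receptor kinase Mertk (2.87) and its relative Axl (1.40), their bridging ligand Gas6 (1.56), the integrin chain Itgb5 that pairs with αv and binds Mfge8 (1.92), and the annexin Anxa1 (0.61) passed. Mertk had 79.4, 69.9 and 132 FPKM in the macrophage libraries, against 17.0 and 7.64 FPKM in the monocyte libraries. All 3 macrophage libraries were above both monocyte libraries, and replicate 3 was the highest. The scavenger receptor Scarb1 (-1.15) and the integrin chain Itgb3 (-1.17) were lower, and 1 of them without macrophage replicate 1 or 2. Stab1, a phosphatidylserine receptor, differed by 0.77 without passing (adjusted p = 0.223), its 85.0 and 28.4 FPKM in the monocyte libraries lying on both sides of 66.8 FPKM, the lowest macrophage value.

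Most general macrophage genes were higher in tumour macrophages, and several defining ones did not pass. Of 20 core macrophage markers, 14 were higher in tumour macrophages and 0 lower (median log2 difference 1.72), and 14 were higher in each fit that left out a library. No core marker was called lower there either. This list shares members with others: Cd63 is also in the lysosome list, Pparg in the alveolar list and the C1q genes in the complement list. Cd68, a lysosomal glycoprotein, had 1300, 1208 and 1473 FPKM in the macrophage libraries, against 565 and 399 FPKM in the monocyte libraries (1.48). Emr1, which encodes F4/80, had 129, 120 and 147 FPKM in the macrophage libraries, against 66.8 and 51.4 FPKM in the monocyte libraries (1.16). Both separated the groups. Csf1r, the M-CSF receptor, had 292, 247 and 332 FPKM in the macrophage libraries, against 294 and 276 FPKM in the monocyte libraries, and the monocyte values lay inside the macrophage range (0.02 ± 0.17, adjusted p = 0.940). The high-affinity IgG receptor Fcgr1 (0.16) did not pass either.

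The 3 chains of complement component C1q are encoded by neighbouring genes on chromosome 4 (C1qa at chr4:136895917-136898803), and all 3 were higher in tumour macrophages. C1qa had 1402, 1153 and 1671 FPKM in the macrophage libraries, against 423 and 228 FPKM in the monocyte libraries (log2 difference 2.16). C1qb (2.08) and C1qc (2.18) differed by nearly the same amount. Other complement genes went in both directions: C2 (0.86), a component of the classical C3 convertase, was higher, while C3 (-0.63), C4b (-1.02), C1s (-2.07) and the C1 inhibitor Serping1 (-2.57) were lower. In all, 6 of 16 complement genes were higher (37.5%, beside 14.2% of all genes) and 4 lower (25.0%, beside 19.0%). The lower count was 2 without macrophage replicate 1, macrophage replicate 2 or monocyte replicate 5. C1s and Serping1 were 9.25 and 34.8 FPKM in monocyte replicate 5, against 3.45 and 9.09 FPKM in replicate 4. Replicate 4 lay between the macrophage mean and replicate 5 in 66.5% of all called genes.

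Genes of the alveolar macrophage were higher in 11 of 15 members tested and lower in 1, the keratin Krt19 (-0.67), with a median of 1.8. The count of higher members was 7 without macrophage replicate 1, without macrophage replicate 2 or without monocyte replicate 5, and Krt19 was not called without monocyte replicate 4 or 5. Pparg, the lipid-sensing nuclear receptor that drives alveolar macrophage development, had 21, 18.9 and 35.1 FPKM in the macrophage libraries, against 4.64 and 6.08 FPKM in the monocyte libraries (log2 difference 1.99, adjusted p = 0.00442). The groups did not overlap. Beside WT CD11c+CD11b- lung macrophages, a population with a different gate that was not tested against them here, the members went both ways. Fabp4 averaged 181 FPKM in tumour macrophages and 16.3 FPKM in tumour monocytes, beside 125 FPKM in WT macrophages, Spp1 averaged 6811 FPKM in tumour macrophages and 905 FPKM in tumour monocytes, beside 334 FPKM in WT macrophages, and Atp6v0d2 averaged 339 FPKM in tumour macrophages and 18.5 FPKM in tumour monocytes, beside 351 FPKM in WT macrophages. Marco, a scavenger receptor, averaged 9.23 ± 3.70 FPKM in tumour macrophages (SD, n = 3) and 2.30 ± 2.75 FPKM in tumour monocytes (SD, n = 2), beside 164 FPKM in WT macrophages. Krt79 averaged 3.20 FPKM in tumour macrophages and 0.467 FPKM in tumour monocytes, beside 221 FPKM in WT macrophages. Cidec, a lipid droplet protein, averaged 1.87 FPKM in tumour macrophages and 0.256 FPKM in tumour monocytes, beside 185 FPKM in WT macrophages. Car4, a surface carbonic anhydrase of alveolar macrophages, did not pass (0.51).

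The same genes set beside all 4 macrophage and monocyte groups of the series showed that a high level in tumour macrophages was not always a high level in WT macrophages. Mfge8 averaged 882 FPKM in tumour macrophages and 40.4 FPKM in tumour monocytes, beside 11.6 FPKM in WT macrophages and 18.0 FPKM in WT monocytes. C1qa averaged 1409 FPKM in tumour macrophages and 325 FPKM in tumour monocytes, beside 5.46 FPKM in WT macrophages and 72.8 FPKM in WT monocytes. Trem2 averaged 535 FPKM in tumour macrophages and 78.5 FPKM in tumour monocytes, beside 42.4 FPKM in WT macrophages and 22.2 FPKM in WT monocytes. These WT values are given as levels only.

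Secreted matrix and growth factor genes followed. Mmp12, the macrophage elastase, had 713, 827 and 671 FPKM in the macrophage libraries, against 144 and 94.0 FPKM in the monocyte libraries (log2 difference 2.65 ± 0.22, SE, limma adjusted p = 0.00139). Timp2, an inhibitor of matrix metalloproteases, had 132, 126 and 167 FPKM in the macrophage libraries, against 27.9 and 32.8 FPKM in the monocyte libraries (2.17). Both genes separated the groups. Of 23 matrix protease and inhibitor genes tested, 6 were higher (26.1%, beside 14.2% of all genes) and 4 lower (17.4%, beside 19.0%), with a median of 0.80. The count of higher members was 12 without monocyte replicate 4 and 4 without any 1 of the other libraries. That of lower members was 2 without macrophage replicate 1 or 2. The membrane-anchored protease Mmp25 (2.41) was among the higher, and Timp3 (-2.11) and Mmp3 (-1.73) among the lower. Mmp25 did not pass without macrophage replicate 1.

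Angiogenic genes divided between the populations. In tumour macrophages, 7 of 18 were higher (38.9%, beside 14.2% of all genes) and 6 lower (33.3%, beside 19.0%). Igf1, insulin-like growth factor 1, had 53.7, 54.9 and 69.7 FPKM in the macrophage libraries, against 9.13 and 3.95 FPKM in the monocyte libraries (log2 difference 3.08). The VEGF co-receptor Nrp2 (2.11) and the growth factor Pdgfc (1.87) were higher too. Vegfa, the main endothelial growth factor, had 175, 173 and 155 FPKM in the macrophage libraries, against 536 and 254 FPKM in the monocyte libraries (-1.13, limma adjusted p = 0.0315). Thbs1, which encodes thrombospondin 1, had 211, 150 and 269 FPKM in the macrophage libraries, against 2006 and 603 FPKM in the monocyte libraries (-2.42). Both genes were lower in every macrophage library, and monocyte replicate 4 was far above replicate 5. The lower count was 2 without macrophage replicate 1 or 3, and 3 without macrophage replicate 2, and the higher count was 4 without macrophage replicate 2 or 3. Receptors Tgfbr1 (1.44) and Tgfbr2 (1.32), through which TGF-β acts, were the 2 higher of 23 growth factor and cytokine receptors (8.7%, beside 14.2% of all genes). Lower were 8 (34.8%, beside 19.0%), among them Il18r1 (-2.05), Csf3r (-1.34) and Il17ra (-1.29). Their lower count was 5 without macrophage replicate 1.

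Monocyte genes marked the other side of the comparison. Of 11 classical monocyte markers tested, 9 were lower in tumour macrophages and 0 higher, with a median of -2.58. Plac8, a small cysteine-rich protein of blood monocytes (chr5:100553725-100572245, minus strand), had 56.7, 39.7 and 13.8 FPKM in the macrophage libraries, against 1067 and 1706 FPKM in the monocyte libraries (log2 difference -5.37 ± 0.56, SE, limma adjusted p = 0.00226). Ccr2, the receptor for the chemokine CCL2, had 20.6, 25.4 and 18.4 FPKM in the macrophage libraries, against 123 and 144 FPKM in the monocyte libraries (-2.58). In both genes the lowest monocyte library was several times above the highest macrophage library. The matrix proteoglycan Vcan (-3.53) and the clotting factor chain F13a1 (-2.72) were lower too, while the fibronectin gene Fn1 (-0.09) and the glutathione transferase Mgst1 (0.75) did not pass. Vcan was under 1 FPKM in every macrophage library, so it entered the test through the monocyte libraries alone.

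Markers of non-classical, patrolling monocytes were lower in 7 of 11 members and higher in 1, the lipid carrier Fabp4, with a median of -1.18. Ace, angiotensin-converting enzyme, had 3.12, 3.49 and 6.19 FPKM in the macrophage libraries, against 43.4 and 121 FPKM in the monocyte libraries (log2 difference -3.85). Nr4a1, the nuclear receptor needed for this subset, had 435, 428 and 452 FPKM in the macrophage libraries, against 1859 and 2013 FPKM in the monocyte libraries (-2.14). Both genes were lower in every macrophage library, and the macrophage values of Nr4a1 were close together. Cx3cr1, the fractalkine receptor, did not pass, with 23.7, 20.2 and 16.7 FPKM in the macrophage libraries, against 22.3 and 36.0 FPKM in the monocyte libraries (-0.48). Nr4a1 is also an immediate early gene, and Ace is also made by lung endothelium, whose markers are described further on.

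**Figure D3:**
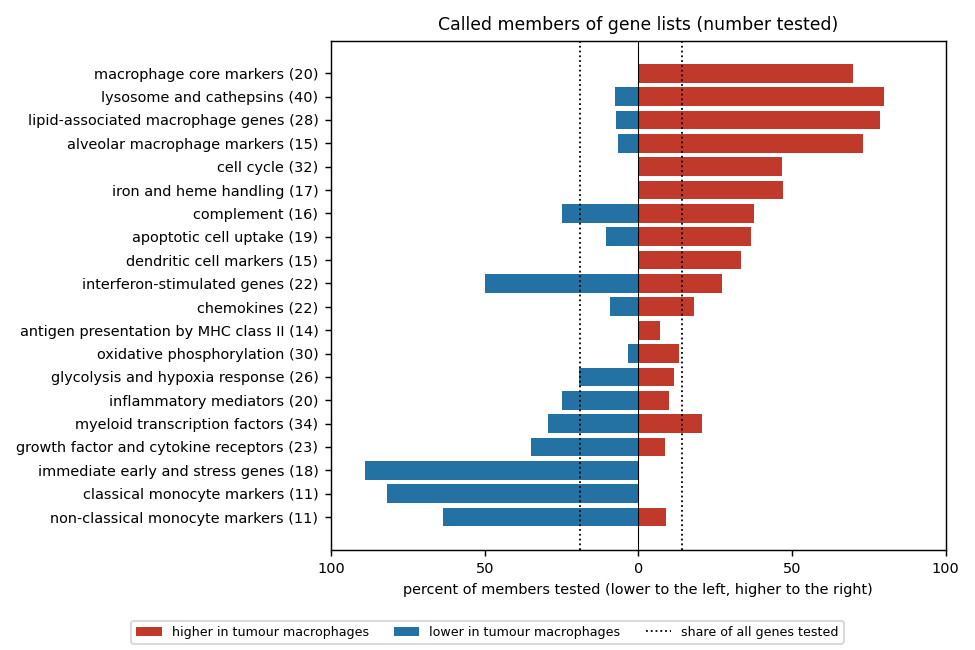
Bars give the percent of tested members called higher (red, to the right) or lower (blue, to the left) in tumour macrophages for 20 gene lists, with the number tested in parentheses; dotted lines mark 14.2% and 19.0%, the shares over all genes. Lysosome, lipid-associated and macrophage core lists lie far to the right, and immediate early and monocyte lists far to the left.

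Of 34 transcription factors, 7 were higher (20.6%, beside 14.2% of all genes) and 10 lower (29.4%, beside 19.0%), with a median of -0.21. The higher factors were Bhlhe41 (2.94), a repressor expressed by alveolar macrophages, Pparg (1.99), Tfec (1.49), Rxra (1.35), the partner of PPARγ, Mitf (1.24), Cebpa (1.07), needed for myeloid differentiation, and the oxysterol sensor Nr1h3 (0.59). Klf2, a Krüppel-like factor of quiescent leukocytes and endothelium, had 32.3, 34.2 and 36.4 FPKM in the macrophage libraries, against 203 and 289 FPKM in the monocyte libraries (log2 difference -2.79 ± 0.17, SE, limma adjusted p = 0.000945). Its values within each group were close beside the gap between groups. Klf4, needed for Ly6C monocytes (-1.84), Cebpd (-1.93), Runx3 (-1.26), Fosl2 (-1.24) and Bach1 (-0.99), a repressor of heme-responsive genes, were lower as well. The higher count was 4 without monocyte replicate 5, and the lower count was 6 without monocyte replicate 4.

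Immediate early and stress genes, which respond within minutes to stimulation or handling of cells, were lower in 16 of 18 members and higher in 0, with a median of -1.25. Fos had 965, 927 and 1236 FPKM in the macrophage libraries, against 3055 and 2805 FPKM in the monocyte libraries (log2 difference -1.50). Btg2, an antiproliferative early gene, had 133, 133 and 108 FPKM in the macrophage libraries, against 482 and 600 FPKM in the monocyte libraries (-2.11). The heat shock gene Hspa1a had 302, 218 and 100.2 FPKM in the macrophage libraries, against 656 and 858 FPKM in the monocyte libraries (-1.99). Groups did not overlap for these 3 genes, and macrophage replicate 3 was the lowest for the last. The lower count was 9 without monocyte replicate 5. Egr1 (-0.16) and Egr2 (0.49) did not pass. The part of sorting or dissociation in these levels was not tested.

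Markers of other cell types also moved with the comparison, and most of those of NK, T, B, endothelial and fibroblast cells were higher in the monocyte libraries. In such bulk libraries, fewer cells of a type and less RNA per cell cannot be told apart. Gzma, the granule protease granzyme A (chr13:113093825-113100981, minus strand), had the largest negative difference among the genes plotted, which leave out those listed at 0 in all libraries of a group, with 6.41, 16.4 and 0.426 FPKM in the macrophage libraries, against 222 and 589 FPKM in the monocyte libraries (log2 difference -6.00 ± 1.01, SE, limma adjusted p = 0.00767). The groups were far apart, although the macrophage libraries themselves differed widely and replicate 3 was nearly empty. Among the 12 largest negative differences, Gzmb (-5.17), Nkg7 (-5.04), the pore protein Prf1 (-4.81), the NK receptor Ncr1 (-4.55), Ctsw (-4.46), the interleukin receptor chain Il2rb (-4.20) and the chemokine Xcl1 (-4.17) are likewise known from NK cells and cytotoxic T cells.

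NK cell markers were lower in 8 of 9 members, with Ccl5 not passing. Their summed level was 267, 412 and 100 FPKM in the macrophage libraries, against 892 and 1914 FPKM in the monocyte libraries, and averaged 832 FPKM in unsorted tumour lung. These sums include Ccl5. The monocyte mean exceeded unsorted tumour lung for all but 2 of the 9, and unsorted tumour lung exceeded the macrophage mean for all 9. Gzma averaged 7.73 FPKM in tumour macrophages and 406 FPKM in tumour monocytes, beside 104 FPKM in unsorted tumour lung. Prf1 averaged 0.538 FPKM and 44.9 FPKM, beside 11.1 FPKM. Endothelial markers were lower in 16 of 19 and higher in 0, and summed to 67.3, 76.5 and 58.1 FPKM in the macrophage libraries, against 194 and 539 FPKM in the monocyte libraries, with 222 FPKM in unsorted tumour lung. The monocyte mean was above unsorted tumour lung for all 19, and macrophages were under it for 18. Ramp2, an endothelial receptor subunit, had 1.67, 1.66 and 0.774 FPKM in the macrophage libraries, against 19.5 and 67.3 FPKM in the monocyte libraries (-4.01).

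Fibroblast and matrix markers were lower in 11 of 12, and summed to 68.5, 69.7 and 34.1 FPKM in the macrophage libraries, against 321 and 594 FPKM in the monocyte libraries. Dcn, which encodes the proteoglycan decorin, had the largest of these differences (-3.87). T cell markers were lower in 9 of 11 and B and plasma cell markers in 10 of 11. The B and plasma cell sum was 82.8, 61.8 and 82.0 FPKM in the macrophage libraries, against 234 and 235 FPKM in the monocyte libraries. The exceptions were Cd4, with 45.2, 33.7 and 32.6 FPKM in the macrophage libraries, against 4.4 and 3.99 FPKM in the monocyte libraries (2.86), and Cd22, an inhibitory lectin of B cells (1.55). Unsorted tumour lung summed to 1214 FPKM for fibroblast, 470 FPKM for T cell and 435 FPKM for B and plasma cell markers. Unlike for most NK and all endothelial markers, its mean exceeded the monocyte mean for 11 of 12, 11 of 11 and 10 of 11 members tested. Neutrophil markers summed to 899, 431 and 564 FPKM in the macrophage libraries, against 784 and 583 FPKM in the monocyte libraries, far under 8408 FPKM in unsorted tumour lung, and 5 of 13 were lower, or 2 without macrophage replicate 1 or 2 and 3 without macrophage replicate 3 or monocyte replicate 5. No marker of the NK, T, B, endothelial, fibroblast, epithelial or neutrophil list that was found in the table was at 0 in every library of a group. NK, endothelial and fibroblast sums were all higher in monocyte replicate 5 than in replicate 4. Among all called genes, replicate 4 lay between the macrophage mean and replicate 5 in 66.5%. Without the genes whose mean in unsorted tumour lung exceeded both sorted groups, a fit added after seeing the data, 5098 genes were tested, 1254 were higher and 1158 lower.

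**Figure D4:**
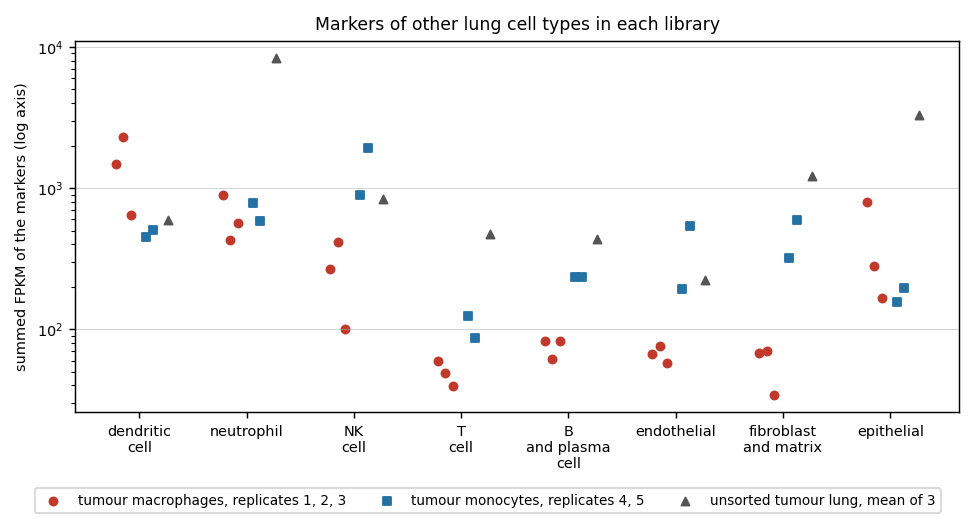
Summed FPKM (log axis) of the markers of 8 other lung cell types in each tumour macrophage library (red circles, replicates 1 to 3) and each tumour monocyte library (blue squares, replicates 4 and 5), with the mean of 3 unsorted tumour lung libraries (grey triangles). NK, T, B, endothelial and fibroblast sums are higher in both monocyte libraries than in any macrophage library, and dendritic cell sums are highest in the macrophage libraries. The NK sum includes Ccl5, which did not pass, and the T cell sum includes Cd4, which was higher in tumour macrophages.

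Epithelial markers went in both directions, with 5 of 14 higher and 5 lower, counts that were 2 and 2 without monocyte replicate 4, 1 and 2 without replicate 5, and 3 and 4 without macrophage replicate 2. The surfactant gene Sftpc had 179, 127 and 42.8 FPKM in the macrophage libraries, against 7.76 and 15.8 FPKM in the monocyte libraries (log2 difference 3.05), and averaged 1743 FPKM in unsorted tumour lung. Sftpb (2.45), Sftpa1 (2.29), Sftpd (1.78) and Epcam (1.93) were also higher. The simple-epithelium keratins Krt8 (-1.58), Krt18 (-1.76), Krt7 (-1.18) and Krt19 (-0.67) and the homeodomain gene Hopx (-0.54) were lower. Scgb1a1, the club cell secretory protein, had 502 FPKM in macrophage replicate 1 and 53.3 and 39.9 FPKM in the other 2, against 13.2 and 60.8 FPKM in the monocyte libraries, and did not pass.

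Dendritic cell markers and MHC class II genes varied widely among the macrophage libraries. The summed level of the dendritic list was 1472, 2313 and 650 FPKM in the macrophage libraries, against 452 and 505 FPKM in the monocyte libraries. Macrophage replicate 3 was the lowest macrophage library for all 5 higher members of 15: Ccl22, Fscn1, the integrin chain Itgae (2.80), the lymph-node homing receptor Ccr7 (2.35) and the chemokine Ccl17 (2.0), and 0 were lower. The count was 3 without macrophage replicate 1, monocyte replicate 4 or monocyte replicate 5. Flt3, the receptor of dendritic cell precursors (0.23), and Zbtb46, a classical dendritic cell factor (0.95), did not pass. Il12b, a cytokine subunit of activated dendritic cells, had 21.1, 36.8 and 7.25 FPKM in the macrophage libraries, against 1.73 and 0.685 FPKM in the monocyte libraries (3.15), again highest in replicate 2 and lowest in replicate 3.

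H2-Aa, a class II α chain, had 3528, 3472 and 1337 FPKM in the macrophage libraries, against 2292 and 2038 FPKM in the monocyte libraries (log2 difference 0.23, adjusted p = 0.722). Replicates 1 and 2 were above both monocyte libraries and replicate 3 under both. The invariant chain Cd74 had 8451, 8154 and 3621 FPKM in the macrophage libraries, against 5533 and 4843 FPKM in the monocyte libraries (0.28), with the same order. Of 14 genes of class II presentation, 1 was higher, Ctss, and 0 lower; without macrophage replicate 3 the counts were 6 higher and 1 lower. Spp1, Mertk, Fabp4 and Lpl were highest in that same library.

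Genes of the interferon response split within the list. Of 22 interferon-stimulated genes tested, 6 were higher in tumour macrophages and 11 lower, with a median of -0.91. Ifit1, which binds viral RNA caps, had 74.6, 70.9 and 62.1 FPKM in the macrophage libraries, against 8.07 and 4.98 FPKM in the monocyte libraries (log2 difference 3.25 ± 0.20, SE, limma adjusted p = 0.000945). Irf7, the transcription factor that amplifies interferon production, had 19.6, 11.8 and 14.9 FPKM in the macrophage libraries, against 83.8 and 181 FPKM in the monocyte libraries (-2.95 ± 0.35, SE, adjusted p = 0.00306). Both genes separated the groups completely, in opposite directions.

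The other higher members were Ifit2 (2.31), the antiviral radical enzyme Rsad2 (1.67), the T cell chemokine Cxcl10 (1.5), the ubiquitin-like modifier Isg15 (1.40) and the RNA sensor Ifih1 (1.19). Isg15 had 327, 314 and 291 FPKM in the macrophage libraries, against 138 and 98.7 FPKM in the monocyte libraries. Cxcl10 passed in 1 of the 5 fits that each left out a library, and the other 5 higher members passed in all 5. In these fits the lower count was 8 without macrophage replicate 1, macrophage replicate 2 or monocyte replicate 5. It was 10 without macrophage replicate 3 and 13 without monocyte replicate 4. The lower members were Irf7, Oas2 (-2.87), which makes the activator of RNase L, the nucleic acid sensor Zbp1 (-2.03), Oas3 (-1.74), the signalling factor Irf9 (-1.40), the RNA sensors Ddx58 (-1.17) and Dhx58 (-1.15), Slfn5 (-1.10), Stat2 (-0.99), Cmpk2 (-0.95) and Oas1a (-0.88). Oas1a had 14.5, 15.3 and 16.9 FPKM in the macrophage libraries, against 26.3 and 32.8 FPKM in the monocyte libraries. Ifit1 and Oas1a belong to families with near-identical copies, between which reads can be divided. Except for Irf7, Oas2 and Zbp1, the members named here were chosen after their values were seen.

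**Figure D5:**
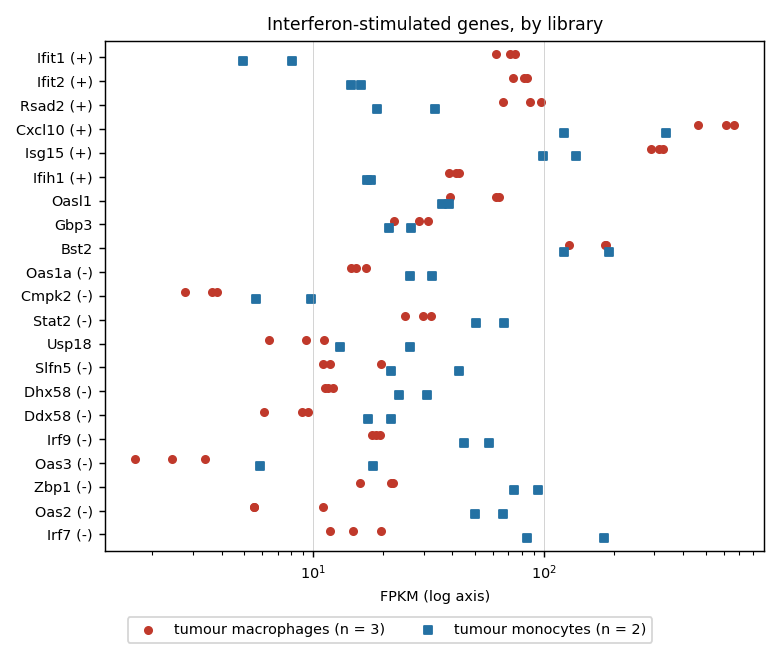
FPKM on a log axis of 21 interferon-stimulated genes in each library, tumour macrophages as red circles (n = 3) above tumour monocytes as blue squares (n = 2), sorted by log2 difference; (+) marks genes higher and (-) genes lower in tumour macrophages. The 6 higher genes stand at the top, where the red circles lie to the right, and the 11 lower genes stand in the lower rows, where they lie to the left.

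Promoters of the list were read from RefSeq (GRCm38.p6) to see whether the response element letters differed between the 2 sides, and 17 of the tested members had a window. The 250 bases before the start were searched for GAAANNGAAA on both strands (TTTCNNTTTC on the other), overlapping matches included. The motif was in 4 of 6 genes higher in tumour macrophages, in 4 of 8 lower genes, and in 2 of 3 genes that did not pass, beside 936 of 27025 genes with a window (3.46%). Both sides of the split thus carried it. The 4 windows below are shown because they hold it on each side, Ifit1 and Isg15 from the higher genes and Oas1a and Oas3 from the lower; capitals mark every match, and each window is written 5′ to 3′ along its gene. They lie at chr19:34640639-34640888 (plus strand), chr4:156200819-156201068 (minus), chr5:120907526-120907775 (minus) and chr5:120777660-120777909 (minus). A match describes letters and is not a measured binding site.
Ifit1: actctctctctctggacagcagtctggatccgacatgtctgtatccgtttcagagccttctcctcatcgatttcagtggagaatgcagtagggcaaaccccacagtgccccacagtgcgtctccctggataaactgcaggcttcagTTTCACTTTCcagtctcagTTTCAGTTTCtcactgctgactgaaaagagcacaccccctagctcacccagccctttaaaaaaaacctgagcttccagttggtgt
Isg15: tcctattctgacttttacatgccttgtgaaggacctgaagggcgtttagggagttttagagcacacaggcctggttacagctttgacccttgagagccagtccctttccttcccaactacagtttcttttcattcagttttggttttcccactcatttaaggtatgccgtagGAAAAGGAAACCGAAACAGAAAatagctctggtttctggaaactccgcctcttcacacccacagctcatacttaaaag
Oas1a: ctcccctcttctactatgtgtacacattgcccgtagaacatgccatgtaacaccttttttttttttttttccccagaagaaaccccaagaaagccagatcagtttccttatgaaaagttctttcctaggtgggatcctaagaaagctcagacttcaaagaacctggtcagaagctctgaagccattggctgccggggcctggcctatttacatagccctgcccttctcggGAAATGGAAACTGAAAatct
Oas3: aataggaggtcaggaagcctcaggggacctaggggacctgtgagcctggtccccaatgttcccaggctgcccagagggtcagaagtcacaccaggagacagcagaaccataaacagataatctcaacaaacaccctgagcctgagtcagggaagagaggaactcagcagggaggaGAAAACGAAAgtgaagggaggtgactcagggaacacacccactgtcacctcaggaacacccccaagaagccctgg

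The matches of Isg15 begin 78, 72 and 66 bases before the start and overlap, those of Ifit1 begin 104 and 85 bases before it, and those of Oas1a 20 and 14 bases before it. Irf7 had no match in its window, nor did Ifit2 or Ifih1. Ifnb1, the interferon-β gene itself and not a member of the list, had 270, 259 and 274 FPKM in the macrophage libraries, against 82.5 and 11.3 FPKM in the monocyte libraries (log2 difference 3.06 ± 0.71, SE, limma adjusted p = 0.0207). All macrophage libraries were close together and above both monocyte libraries, which were far apart. The receptor chains Ifnar1 (-0.39) and Ifnar2 (0.05) did not pass. Ifnb1 was chosen after its values were seen.

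Inflammatory mediators depended on the monocyte library. Il1b, encoding interleukin 1β, had 1569, 1244 and 1166 FPKM in the macrophage libraries, against 5167 and 1383 FPKM in the monocyte libraries, where replicate 4 was far above every other library and replicate 5 lay inside the macrophage range (log2 difference -1.02, adjusted p = 0.181). Arg1, the arginine-degrading enzyme of suppressive myeloid cells, had 81.3, 169 and 162 FPKM in the macrophage libraries, against 598 and 58.8 FPKM in the monocyte libraries (-0.52, adjusted p = 0.686). Tnf had 1461, 1420 and 1456 FPKM in the macrophage libraries, against 977 and 343 FPKM in the monocyte libraries, which did not overlap but missed the threshold (1.32, adjusted p = 0.0520). Of 20 mediators tested, 2 were higher (10.0%, beside 14.2% of all genes) and 5 lower (25.0%, beside 19.0%). Without monocyte replicate 4 the counts were 8 higher and 3 lower, without monocyte replicate 5 they were 0 higher and 9 lower, without macrophage replicate 1 or 2 they were 1 and 1, and without macrophage replicate 3 they were 1 and 3. The lower members with the largest differences were Lif (-2.03), Il27 (-1.56) and Osm (-1.55), all cytokines. Lif had 8.29, 9.21 and 11.1 FPKM in the macrophage libraries, against 95.1 and 18.2 FPKM in the monocyte libraries. It did not pass when any 1 macrophage library was left out, and Osm did not pass without macrophage replicate 1 or 2. Osm had 280, 277 and 447 FPKM in the macrophage libraries, against 1383 and 665 FPKM in the monocyte libraries.

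Of 22 chemokines tested, 4 were higher (Ccl22, Ccl17, Cxcl10 and Cxcl14; 18.2%, beside 14.2% of all genes) and 2 lower (Xcl1 and Ccl11; 9.09%, beside 19.0%). Depending on the library left out, the higher count was 10 without monocyte replicate 4 and 2 without macrophage replicate 1, macrophage replicate 2 or monocyte replicate 5; the lower count was 5 without monocyte replicate 5. Among their receptors 5 of 13 were lower (38.5%, beside 19.0% of all genes), led by Ccr2 and by Cxcr4, the receptor that retains leukocytes in bone marrow (-1.60). Ccr7 and Cxcr1 were the 2 higher (15.4%, beside 14.2%), and the higher count was 1 without macrophage replicate 1. Cxcr4 had 183, 166 and 192 FPKM in the macrophage libraries, against 580 and 515 FPKM in the monocyte libraries.

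Glycolysis and oxidative phosphorylation had shares of higher members near the 14.2% of all genes. Of 26 glycolysis and hypoxia genes, 3 were higher, the hexokinases Hk2 (1.04) and Hk3 (1.35) and the aldolase Aldoc (1.39), and 5 were lower, among them the glucose carrier Slc2a3 (-1.73). Without monocyte replicate 4 the counts were 8 higher and 3 lower, without replicate 5 they were 2 higher and 11 lower, and without any 1 macrophage library they were 2 and 2. Of 30 genes of oxidative phosphorylation, 4 were higher, with the succinate dehydrogenase chain Sdha at 0.81, and 1 was lower; the higher count was 1 without macrophage replicate 1 or 2 and 2 without monocyte replicate 5, and the lower count was 2 without macrophage replicate 3. Of 20 genes of cholesterol and fatty acid synthesis, 3 were higher, led by Dhcr7 (1.61), and 2 lower, among them the elongase Elovl6 (-0.73); 1 was lower without any 1 macrophage library or without monocyte replicate 5. Iron and heme genes were higher in 8 of 17 and lower in 0, with a median of 0.85, led by Mfsd7c (2.35) and by Trf, the iron carrier transferrin (2.16). Trf had 655, 594 and 939 FPKM in the macrophage libraries, against 215 and 118 FPKM in the monocyte libraries. The heme oxygenase Hmox1 did not pass (0.85, adjusted p = 0.132), with macrophage replicate 3 at 656 FPKM and replicates 1 and 2 at 277 and 279 FPKM.

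Cell cycle genes were higher in 15 of 32 members and lower in 0, at low levels, with a median of 0.64. Bub1b, a spindle checkpoint kinase, had 10.5, 9.19 and 8.83 FPKM in the macrophage libraries, against 3.39 and 3.27 FPKM in the monocyte libraries (log2 difference 1.28). Mki67, the proliferation antigen, had 19.0, 18.3 and 13.7 FPKM in the macrophage libraries, against 8.96 and 5.44 FPKM in the monocyte libraries (1.15), and Birc5, a regulator of chromosome segregation, differed by 1.19. The groups did not overlap for these 3 mitotic genes. The replication genes Pcna (-0.17) and Mcm5 (0.08) did not pass. The count of higher members was 4 without macrophage replicate 1, 6 without macrophage replicate 2, 20 without macrophage replicate 3, 9 without monocyte replicate 4 and 3 without monocyte replicate 5.

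Adhesion and sensing genes completed the description. Among 23 genes of integrins and adhesion, 5 were higher (21.7%, beside 14.2% of all genes) and 9 lower (39.1%, beside 19.0%) in tumour macrophages. In the fits that each left out a library, 6 to 8 were lower. Itgb2, the chain that pairs with both CD11b and CD11c, was higher (1.18), while Pecam1 (-2.91), Icam2 (-2.90), the sialomucin Spn (-2.57) and the LFA-1 chain Itgal (-1.13) were lower. Pecam1 is also a member of the endothelial list. Monocyte replicates 4 and 5 had 19.1 and 42.5 FPKM of Pecam1 and 20.8 and 32.7 FPKM of Icam2. Of 7 Fc receptors, Fcgr4 (1.39) and Fcgrt (0.94), the neonatal Fc receptor, were higher and Fcer2a (-2.70), the low-affinity IgE receptor of B cells, lower. That is 28.6% higher and 14.3% lower, beside 14.2% and 19.0% of all genes. Fcgr4 did not pass without macrophage replicate 1 or 3 or monocyte replicate 5, where the higher count was 1, and the lower count was 2 without monocyte replicate 5. Of 17 Toll-like receptor genes, the endosomal receptors Tlr8 (1.16), Tlr7 (0.75) and Tlr3 (0.89) and the TLR4 partner Ly96 (0.75) were higher, and Tlr5 (-1.12), Myd88 (-0.78) and Irak3 (-0.56) lower. These shares were 23.5% higher and 17.6% lower, beside 14.2% and 19.0% of all genes. Tlr7 had 32.8, 31.0 and 42.6 FPKM in the macrophage libraries, against 18.9 and 22.2 FPKM in the monocyte libraries. It did not pass without macrophage replicate 1, and Ly96 did not pass when any 1 macrophage library was left out. The higher count was 1 without macrophage replicate 1 or monocyte replicate 4, and the lower count was 1 without macrophage replicate 1, macrophage replicate 2 or monocyte replicate 4.

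Of 20 genes of immune regulation and alternative activation, 4 were higher (20.0%, beside 14.2% of all genes) and 2 lower (10.0%, beside 19.0%), with a median of 0.04. The higher members were Trem2, the mannose receptor Mrc1 (1.63), the ectonucleotidase Entpd1 (0.84) and Cd274, which encodes the checkpoint ligand PD-L1. Cd274 had 168, 165 and 199 FPKM in the macrophage libraries, against 118 and 41.8 FPKM in the monocyte libraries (log2 difference 1.32, limma adjusted p = 0.0460). All macrophage libraries were above both monocyte libraries, but the gene passed in 1 of the 5 fits that each left out a library. Tgfb1 (-0.47) and Pdgfb (-0.56) were lower. The higher count was 8 without monocyte replicate 4, and 3 without macrophage replicate 1, macrophage replicate 2 or monocyte replicate 5. The lower count was 0 without any 1 macrophage library and 3 without monocyte replicate 5. The cytokine Il10 did not pass (0.11). Ribosomal protein genes gave 0 higher and 1 lower of 26, Rpl27 (-0.65), with a median of -0.37, and the lower count was 2 without macrophage replicate 3 and 0 without any other library. Of the other lists, interstitial macrophage markers had 6 of 20 higher and 3 lower, Apoe listed at 0 among them. Without monocyte replicate 4 they had 10 higher and 5 lower. Their higher count was 5 without macrophage replicate 1 or 2 or monocyte replicate 5. C-type lectins and scavenger receptors had 5 of 17 higher (29.4%, beside 14.2% of all genes) and 2 lower (11.8%, beside 19.0%). Their higher count was 11 without monocyte replicate 4, and 4 without macrophage replicate 1 or 2 or monocyte replicate 5. Their lower count was 0 without macrophage replicate 1 or 2, and 1 without monocyte replicate 5. It was 3 without macrophage replicate 3 or monocyte replicate 4. NADPH oxidase and granule genes had 2 of 13 higher (15.4%, beside 14.2% of all genes) and 5 lower (38.5%, beside 19.0%). Of these, 1 was higher without macrophage replicate 1 or 3 or monocyte replicate 5, and 3 were lower without macrophage replicate 1. Unless they also appear above, the genes of the adhesion, sensing and regulation lists were named after their values were seen.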

How the data were processed

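RNA from sorted mouse lung cells was sequenced from TruSeq libraries. Per the submitters' processing notes, the tools were CASAVA 1.8.2, TopHat2, Cufflinks and Cuffdiff, with genome build mm10 (GRCm38). The deposited values are FPKM, made by the authors, for 16024 gene symbols, and no count of reads was used, so absolute depth is unknown and no counting interval is given.

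FPKM plus 1 were put on the log2 scale, which understates differences of low genes. Genes that reached 1 FPKM in 2 or more of these 5 libraries entered a limma fit (3.58.1, R 4.3.3) with 3 residual degrees of freedom and a mean-variance trend. A gene under 1 FPKM throughout a group could enter through the other group alone, as Vcan, Prf1 and Mfsd7c did. Adjustment was by Benjamini-Hochberg, and an adjusted p under 0.05 was called. Differences are macrophages minus monocytes.

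Members and lists were chosen with earlier results of these data known. Of 871 entries in 41 lists, 796 were found, 9 under older symbols. Lists share members, such as Fabp4 and Spp1 in the alveolar and lipid-associated lists, so their counts are not independent. Named genes were the 12 largest called differences each way with a higher group of at least 20 FPKM, no overlap and no group listed at 0 throughout, the 3 largest called members per list in its main direction, defining uncalled members, sort markers and abundant genes listed at 0; others were named after their values were seen. Positions are from GENCODE M21, promoters from RefSeq. Summaries and figures used pandas 2.3.3, numpy 2.4.6 and matplotlib 3.10.9 in Python 3.11.15. Alternatives were a pseudocount of 0.1 or 5, no filter or 5 FPKM, quantile or upper-quartile scaling, all 10 groups in the fit, robust or untrended moderation, genes at 0 left out, each library left out and, added after seeing the data, genes higher in unsorted lung left out. Some genes are not reported here by name, and counts over lists include them.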

Additional observations from a re-analysis of the deposited data

How the results depend on the processing

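Leaving out 1 library at a time gave 1949 to 2845 called genes, 805 to 1224 higher and 1114 to 1621 lower in tumour macrophages, and kept 53.8% to 77.1% of the calls. With genes whose mean in unsorted tumour lung exceeded both sorted groups left out, an alternative chosen after seeing the data, 1158 genes were lower; by construction fewer genes were tested. The other alternatives gave 2723 to 4169 called genes, within 1.5 times of the reported count. Quantile normalization made 51.9% of the calls higher, beside 42.8% as reported. The 116 genes counted here were taken because they were called, apart from sort markers and abundant genes listed at 0. That 115 of them were called follows from this choice. Of these 115, 88 were called under every alternative that kept the gene. The count of reversed directions was 0, which the choice of large differences also favours. No paired analysis was possible because the compared groups share no replicate number. These numbers run on across the tumour groups, so they do not say whether macrophages and monocytes came from the same lungs. With 3 and 2 libraries and unknown depth, the precision of low genes cannot be given.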
